A study of Sus scrofa with 11 samples.

Results

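Plasma cells are the antibody-secreting end stage of the B cell lineage, and the expression of 10 genes known from plasma cells or their B cell precursors was compared between day 10 wounds of a diabetic and a non-diabetic minipig. The genes were MZB1, JCHAIN, POU2AF1, BHLHA15, IRF4, XBP1, PRDM1, DERL3, FCRLA and SDC1, and they were found by symbol as 10 of the 30376 genes in the table. Poly(A) RNA was sequenced from 11 full-thickness skin wounds of Yucatan minipigs on day 10. Of these wounds, 7 came from 1 female pig made diabetic by intravenous streptozotocin (STZ), a toxin of pancreatic beta cells, kept on insulin afterwards and taken off it before wounding. The other 4 came from 1 non-diabetic female of the same strain that received identical wounds. The 11 wounds are therefore repeated samples within 2 animals, and differences between the pigs other than diabetes cannot be told apart from it. The ages of the pigs are not in the labels, though the study's methods state that of the pig given STZ. No wound treatment is named in the labels.

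A B cell becomes a plasma cell when IRF4 and PRDM1 shut down the B cell programme and XBP1 enlarges the endoplasmic reticulum (ER), the compartment where antibody chains fold and pair. BHLHA15 acts downstream of XBP1 in secretory cells, and POU2AF1 is the coactivator of the octamer-binding factors at immunoglobulin genes. MZB1 and DERL3 work in the ER, JCHAIN joins IgA and IgM into polymers, and SDC1 (CD138) is the surface proteoglycan by which plasma cells are commonly sorted. Several of these genes are also used elsewhere in skin: SDC1 and PRDM1 by keratinocytes, and XBP1 by any cell with a busy ER.

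Of the 10 genes, 5 were higher in diabetic wounds and 0 were lower (7 and 0 at an unadjusted p under 0.05, against 9.01% higher and 9.39% lower among all genes tested), where a call needed an adjusted p under 0.05 and a log2 fold change above 0.5 in size by limma. The called genes were POU2AF1, MZB1, BHLHA15, IRF4 and FCRLA. DERL3 and JCHAIN had higher means without passing the test, and XBP1, PRDM1 and SDC1 had nearly equal means in both groups. All 10 passed the filter on low values (at least 0.5 FPKM in at least 4 wounds). Among all 13956 genes tested, 1.35% were called higher in diabetic wounds. The median log2 fold change of the 10 genes was 1.16, against 0.01 for all genes tested. The 10 genes were chosen with earlier results of these data known, so neither this median nor the count of calls is an independent test. BHLHA15 reached 0.5 FPKM in diabetic wounds alone, so its higher values in that group were a condition of its being tested. Of the other 9 genes 4 were called, with a median of 1.03. In 3 genes (POU2AF1, IRF4 and FCRLA) every diabetic wound lay above every non-diabetic wound, which held for 2.69% of the genes tested. All values are FPKM as deposited, that is, fragments scaled by gene length and a factor for each library, and log2 fold changes are diabetic minus non-diabetic on the log2(FPKM + 0.5) scale, which understates the change of low genes. Wounds are bulk tissue, so a difference in the number of plasma cells and a difference in RNA per cell cannot be told apart.

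**Figure D1:**
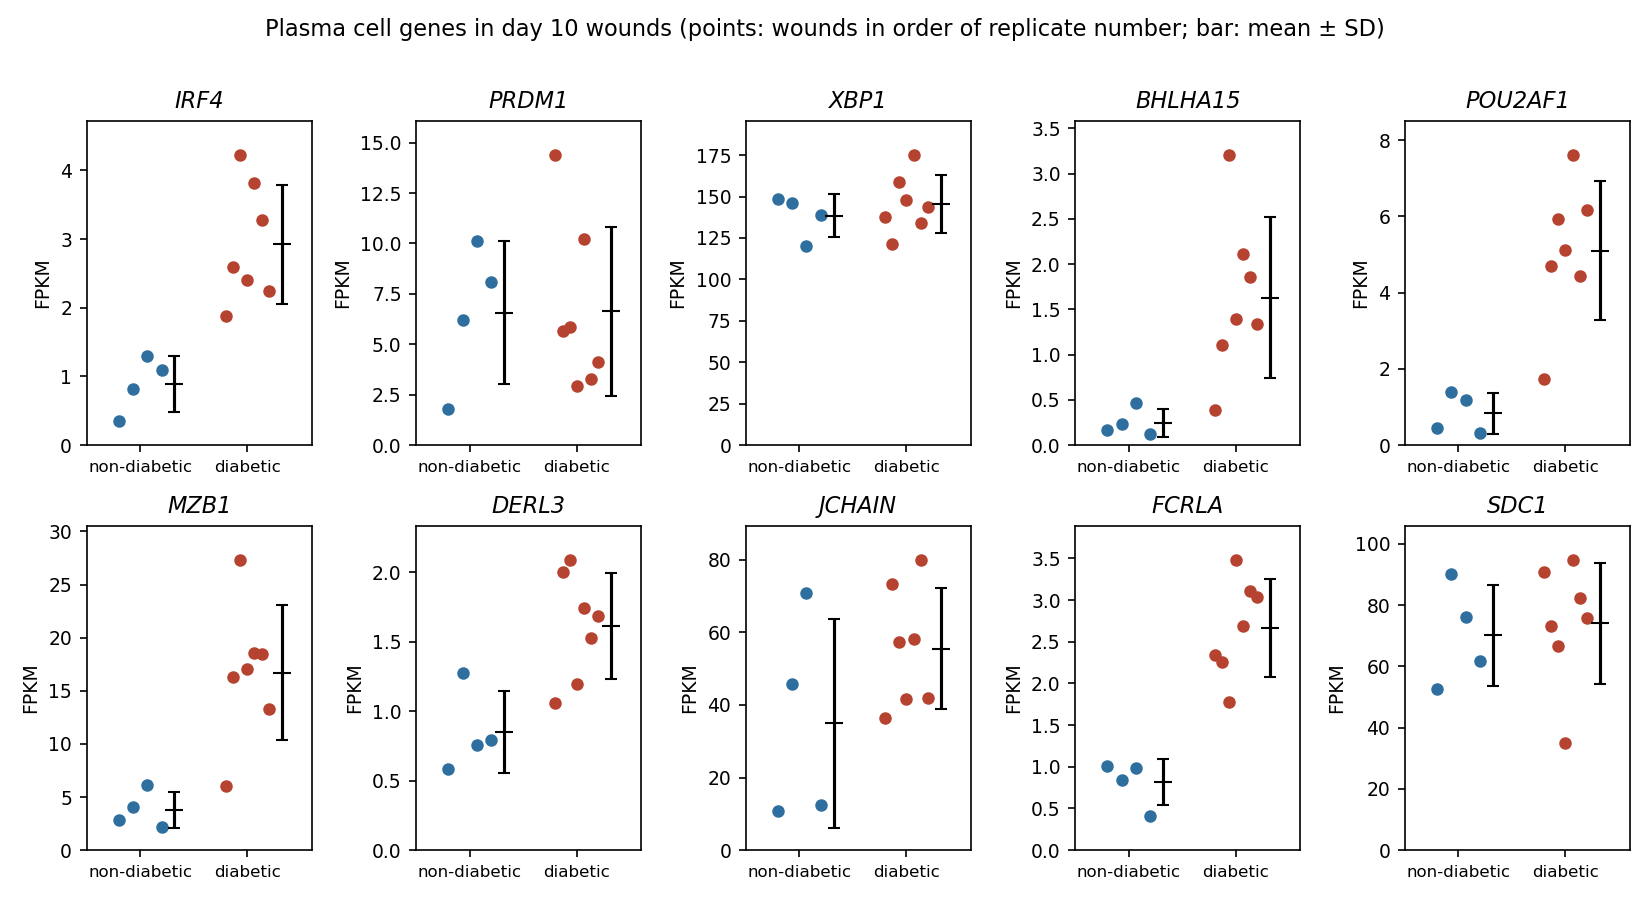
FPKM of the 10 plasma cell genes (linear axes from 0) in each of 4 non-diabetic wounds (blue) and 7 diabetic wounds (red), with the mean and SD of each group in black. POU2AF1, IRF4 and FCRLA do not overlap between groups, diabetic wound 1 lies among or near the non-diabetic wounds for MZB1 and BHLHA15, and XBP1, PRDM1 and SDC1 overlap widely.

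The depth and make-up of the libraries bear on these values. Reads on genes ranged from 28314785 to 40168372 in diabetic wounds and from 32961018 to 36872400 in non-diabetic wounds. Diabetic wound 4 and non-diabetic wound 1 stood apart from the other 9 on the first principal component, which carried 44.5% of the variance. Their summed keratinocyte markers, of which KRT5 was the most abundant, were 35.6 and 254 FPKM, the lowest of each group. Without these 2 wounds 3 of the 10 genes were called (POU2AF1, IRF4 and FCRLA).

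Windows of 300 bases around each annotated gene start, from 250 bases before to 50 bases after it, were read from the Sscrofa11.1 genome. They are shown for POU2AF1 and BHLHA15, the regulators with the highest log2 fold changes, and for the ER gene DERL3, since plasma cell genes of the ER are known targets of XBP1. Capitals mark the 6 letters CCACGT on either strand, the core of the XBP1 binding site, which was added to the search after the windows had been seen. It was present in the window of DERL3, and in 10.2% of the windows of 20664 protein coding genes. Whether windows not shown hold this core is not reported here. The windows of DERL3 (chr14:49870827-49871126, plus strand), POU2AF1 (chr9:39144587-39144886, minus strand) and BHLHA15 (chr3:5410217-5410516, plus strand) read as follows.
DERL3: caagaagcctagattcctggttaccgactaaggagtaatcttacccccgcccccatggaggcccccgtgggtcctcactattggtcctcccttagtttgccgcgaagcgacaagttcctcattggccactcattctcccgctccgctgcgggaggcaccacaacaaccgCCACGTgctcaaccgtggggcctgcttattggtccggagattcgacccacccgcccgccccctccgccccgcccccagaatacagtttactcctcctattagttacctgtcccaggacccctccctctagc
POU2AF1: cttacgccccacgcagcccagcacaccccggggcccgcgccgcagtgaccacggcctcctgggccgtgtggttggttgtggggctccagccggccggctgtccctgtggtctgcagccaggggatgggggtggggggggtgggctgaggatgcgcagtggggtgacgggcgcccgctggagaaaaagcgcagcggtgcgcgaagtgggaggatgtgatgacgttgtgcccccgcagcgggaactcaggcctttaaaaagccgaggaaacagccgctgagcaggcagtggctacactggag
BHLHA15: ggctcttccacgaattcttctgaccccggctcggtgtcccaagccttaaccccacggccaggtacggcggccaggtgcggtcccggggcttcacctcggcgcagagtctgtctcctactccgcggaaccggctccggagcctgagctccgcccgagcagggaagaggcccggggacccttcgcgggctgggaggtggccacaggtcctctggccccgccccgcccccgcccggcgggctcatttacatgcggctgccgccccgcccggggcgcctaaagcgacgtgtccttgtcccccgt
The core lay 81 to 76 bases before the start of DERL3. The POU2AF1 and BHLHA15 windows held no match to any sequence searched.

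The other sequences searched on both strands were the octamer ATGCAAAT, the longer XBP1 site TGACGTGG, the composite ETS and IRF site GGAANNGAA, the PRDM1 site GAAAGTGA and the E-box CAGCTG. The octamer, the longer XBP1 site and the PRDM1 site were in 0 of the 10 windows and in 1.47%, 0.697% and 1.51% of all windows. The PRDM1 window held 1 ETS and IRF match, 160 to 152 bases before the start (8.14% of all windows held one). The XBP1 window held 1 E-box, 28 to 33 bases after the start (16.3% of all windows). These matches describe the letters of the windows and are not evidence of binding. The share of G and C ran from 28.7% in the JCHAIN window to 77.3% in the IRF4 window.

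Among the transcription factors, IRF4 and BHLHA15 were higher in diabetic wounds while PRDM1 and XBP1 were not called. IRF4 lies on chromosome 7 (133358 to 149609, plus strand). Its 4 non-diabetic wounds had 0.348, 0.815, 1.30 and 1.10 FPKM. The diabetic wounds ran from 1.88 through a median of 2.59 to 4.22 FPKM, so the lowest diabetic wound was above the highest non-diabetic wound. The mean was 2.92 ± 0.870 FPKM (SD, n = 7) against 0.889 ± 0.411 (SD, n = 4), a log2 fold change of 1.32 (SE 0.24, adjusted p = 0.0125, limma). An exact two-sided permutation test over all 330 splits of the wounds gave p = 0.00303 for IRF4, the smallest value this design allows. IRF4 also serves activated B cells, T cells and melanocytes, and the melanocyte markers summed to 0.155 to 7.05 FPKM in diabetic wounds and 1.92 to 17.0 in non-diabetic wounds.

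BHLHA15 (MIST1) organises the secretory apparatus of cells that export protein in bulk and lies on chromosome 3 (5410467 to 5414074, plus strand). It was low throughout, at 0.165, 0.233, 0.466 and 0.121 FPKM in the non-diabetic wounds. The diabetic wounds ran from 0.387 through a median of 1.39 to 3.20 FPKM, and 6 of the 7 lay above every non-diabetic wound, diabetic wound 1 being the exception. For BHLHA15 the log2 fold change was 1.42 (SE 0.31, adjusted p = 0.0320, limma; exact permutation p = 0.00606). The ratio of the mean FPKM values was 6.62, the highest of the 10 genes. It passed the filter on low values through the diabetic wounds alone, with 6 diabetic and 0 non-diabetic wounds at or above 0.5 FPKM. These values rest on 14 to 48 reads in non-diabetic wounds and 41 to 373 in diabetic wounds. It was called in 13 of 23 alternative analyses, fewer than any other of the 5 called genes. Among these, leaving out any 1 of diabetic wounds 5, 6 and 7 or any 1 of the 4 non-diabetic wounds gave an adjusted p between 0.0574 and 0.0975 (limma). Limma's voom on reads recovered from the FPKM values did not call BHLHA15 either (adjusted p = 0.0985).

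PRDM1 (BLIMP-1), the repressor that ends the B cell programme, lies on chromosome 1 (72309096 to 72335474, plus strand). Its non-diabetic wounds had 1.81, 6.22, 10.1 and 8.10 FPKM, and its diabetic wounds ran from 2.94 through 5.66 to 14.4. The groups overlapped over nearly their whole range, with the highest value in diabetic wound 1 and the lowest in non-diabetic wound 1. The log2 fold change of PRDM1 was 0.03, with a 95% interval from -1.01 to 1.07 (adjusted p = 0.982, limma), an interval that includes 2-fold changes in both directions. Its sign turned when single wounds were left out, from -0.44 without non-diabetic wound 1 to 0.29 without non-diabetic wound 3.

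XBP1, the transcription factor of the unfolded protein response, lies on chromosome 14 (46011239 to 46016526, minus strand) and was the most abundant of the 10 genes. The non-diabetic wounds had 149, 146, 120 and 139 FPKM, and the diabetic wounds ran from 121 through 144 to 175. No wound departed far from the others in either group. Diabetic minus non-diabetic, the log2 fold change of XBP1 was 0.07, with a 95% interval from -0.16 to 0.30 (adjusted p = 0.794, limma). The table sums all transcripts of the gene, so the spliced mRNA that encodes the active factor was not measured.

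POU2AF1 (OCA-B, also called BOB.1) lies on chromosome 9 (39121422 to 39144636, minus strand) and showed the highest log2 fold change of the 10 genes. The non-diabetic wounds had 0.455, 1.40, 1.18 and 0.310 FPKM. The diabetic wounds ran from 1.74 through a median of 5.13 to 7.60 FPKM, with no overlap between groups. The mean was 5.10 ± 1.83 FPKM (SD, n = 7) against 0.836 ± 0.535 (SD, n = 4), and the log2 fold change was 2.07 (SE 0.34, adjusted p = 0.00720, limma; exact permutation p = 0.00303). The lowest diabetic value was again that of wound 1, on 67 reads, and the non-diabetic values rest on 13 to 48 reads.

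**Figure D2:**
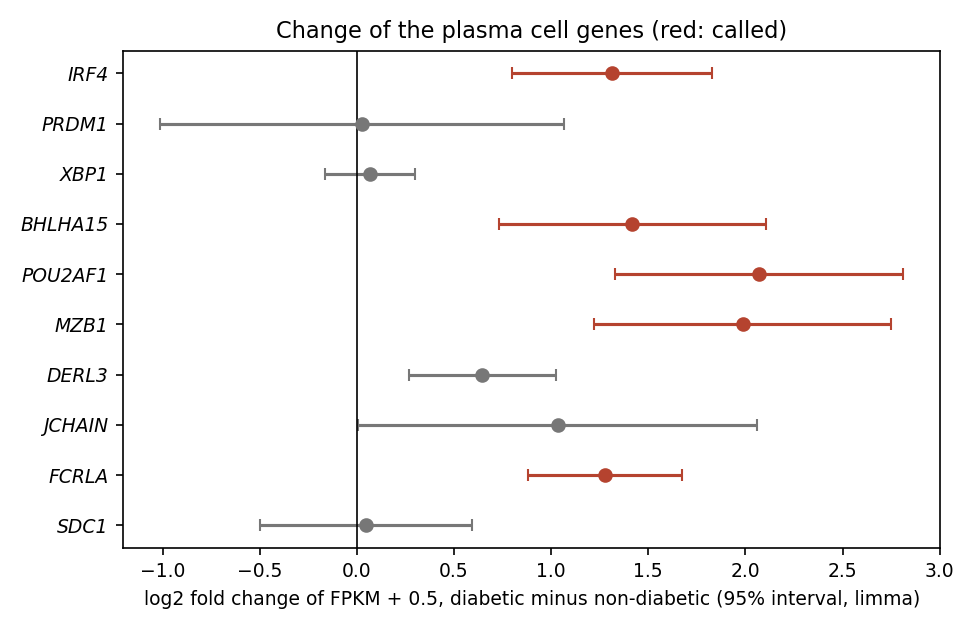
Log2 fold change (diabetic minus non-diabetic, on log2(FPKM + 0.5)) of each of the 10 genes with its 95% interval from limma, red where called. The intervals of POU2AF1, MZB1, BHLHA15, IRF4, FCRLA and DERL3 lie above 0, that of JCHAIN starts at 0.00, and those of XBP1, PRDM1 and SDC1 span 0, narrowly for XBP1 (-0.16 to 0.30) and widely for PRDM1 (-1.01 to 1.07).

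Of the 2 ER genes, MZB1 was higher in diabetic wounds and DERL3 came close to the threshold. MZB1 (pERp1) is a B lineage chaperone that helps immunoglobulin heavy and light chains assemble, and lies on chromosome 2 (141277541 to 141279652, minus strand). The non-diabetic wounds had 2.81, 4.06, 6.09 and 2.16 FPKM. The diabetic wounds ran from 6.03 through a median of 17.0 to 27.3 FPKM, with the lowest, wound 1, just under the highest non-diabetic wound and the other 6 above it. The mean of MZB1 was 16.7 ± 6.37 FPKM (SD, n = 7) against 3.78 ± 1.73 (SD, n = 4), a 4.42-fold ratio. The log2 fold change was 1.99 (SE 0.35, adjusted p = 0.0117, limma; exact permutation p = 0.00606), and without both wounds poor in keratinocyte markers it was 1.87 with an adjusted p of 0.0624 by limma. An uncharacterised gene, LOC110259503, covers all 2112 bases of MZB1 on the other strand, but was listed at no more than 0.114 FPKM in any wound. SLC23A1 shares 15 bases with MZB1 on the same strand and was not called (log2 fold change 0.63, adjusted p = 0.466, limma).

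DERL3 belongs to the derlin family, which takes misfolded proteins out of the ER for degradation, and lies on chromosome 14 (49871077 to 49875022, plus strand). The non-diabetic wounds had 0.586, 1.27, 0.754 and 0.795 FPKM, and the diabetic wounds ran from 1.06 through 1.68 to 2.09. Non-diabetic wound 2 reached into the diabetic range, and 5 of the 7 diabetic wounds lay above it. Its log2 fold change was 0.65 (SE 0.17, adjusted p = 0.0665, limma; exact permutation p = 0.0121). It was called in 4 of 23 alternatives, among them leaving out diabetic wound 1 (adjusted p = 0.0369) or non-diabetic wound 2 (adjusted p = 0.0497), both by limma. DERL3 shares 42 bases with SMARCB1 on the other strand, which was expressed at 12.2 to 19.1 FPKM, and the strand setting of the counting is not given in the sources used here.

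JCHAIN, the small joining chain of polymeric IgA and IgM, lies on chromosome 8 (67439405 to 67448628, minus strand) and was the most abundant of the genes restricted to the B lineage. The non-diabetic wounds fell into unlike values of 10.9, 45.7, 70.8 and 12.4 FPKM. The diabetic wounds ran from 36.4 through a median of 57.3 to 79.9 FPKM. Non-diabetic wounds 1 and 4 lay below every diabetic wound, while non-diabetic wound 3 was exceeded by only 2 diabetic wounds. The log2 fold change of JCHAIN was 1.03 with a 95% interval from 0.00 to 2.06 (adjusted p = 0.270, limma; exact permutation p = 0.0818), and it was called in 0 of 23 alternatives. Single non-diabetic wounds moved it, to 0.63 without wound 1 and to 1.51 without wound 3.

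FCRLA, an Fc receptor-like protein kept inside B cells, lies on chromosome 4 (88846054 to 88855310, minus strand) and had the smallest adjusted p of the 10 genes. The non-diabetic wounds had 1.01, 0.845, 0.989 and 0.412 FPKM, and the diabetic wounds ran from 1.78 through 2.68 to 3.48. The groups did not overlap, and the diabetic spread was narrow (2.67 ± 0.585 FPKM, SD, n = 7, against 0.813 ± 0.277, SD, n = 4). This gave a log2 fold change of 1.28 (SE 0.18, adjusted p = 0.00319, limma; exact permutation p = 0.00303). Unlike the other called genes, its highest value was in diabetic wound 4 and its lowest diabetic value in wound 3, the wound that was highest for MZB1, BHLHA15 and IRF4.

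SDC1, the plasma cell sorting marker that keratinocytes also carry at high level, lies on chromosome 3 (117987585 to 118011886, plus strand). The non-diabetic wounds had 52.6, 90.1, 76.0 and 61.6 FPKM, and the diabetic wounds ran from 34.9 through 75.8 to 94.6. The lowest value of each group was in the wound poorest in keratinocyte markers. For SDC1 the log2 fold change was 0.05 with a 95% interval from -0.50 to 0.60 (adjusted p = 0.946, limma). Over the 11 wounds, Pearson's r between SDC1 and the summed keratinocyte markers was 0.856, against -0.028 with the summed B cell markers. These correlations, like the others given here, are descriptions over 11 wounds of 2 animals that share group, library and animal.

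Diabetic wound 3 held skeletal muscle transcripts, with summed muscle markers of 1753 FPKM (mostly ACTA1) against at most 5.07 in any other wound. It was also the wound with the highest MZB1, BHLHA15 and IRF4. Without it the log2 fold changes were 1.85 for MZB1 (adjusted p = 0.0201), 1.27 for BHLHA15 (adjusted p = 0.0453) and 1.23 for IRF4 (adjusted p = 0.0242), all by limma, so the 3 genes stayed called.

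The 10 genes did not vary as 1 unit from wound to wound. Pearson's r of log2(FPKM + 0.5) between MZB1 and each other gene over the 11 wounds was 0.972 for BHLHA15, 0.960 for POU2AF1, 0.917 for IRF4, 0.848 for DERL3, 0.821 for FCRLA and 0.755 for JCHAIN, but 0.226 for XBP1 and -0.082 for PRDM1. After subtraction of the group means, which removes the difference between the pigs, r with MZB1 remained at 0.923 for BHLHA15, 0.835 for POU2AF1, 0.673 for IRF4 and 0.668 for JCHAIN. It was 0.159 for FCRLA, whose likeness to MZB1 over all wounds thus came mostly from the group difference. PRDM1 and SDC1 each had their highest r with the other, at 0.616 after subtraction of the group means. They were not apart from the rest, with r of 0.443 for SDC1 with JCHAIN and 0.402 for PRDM1 with IRF4.

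**Figure D3:**
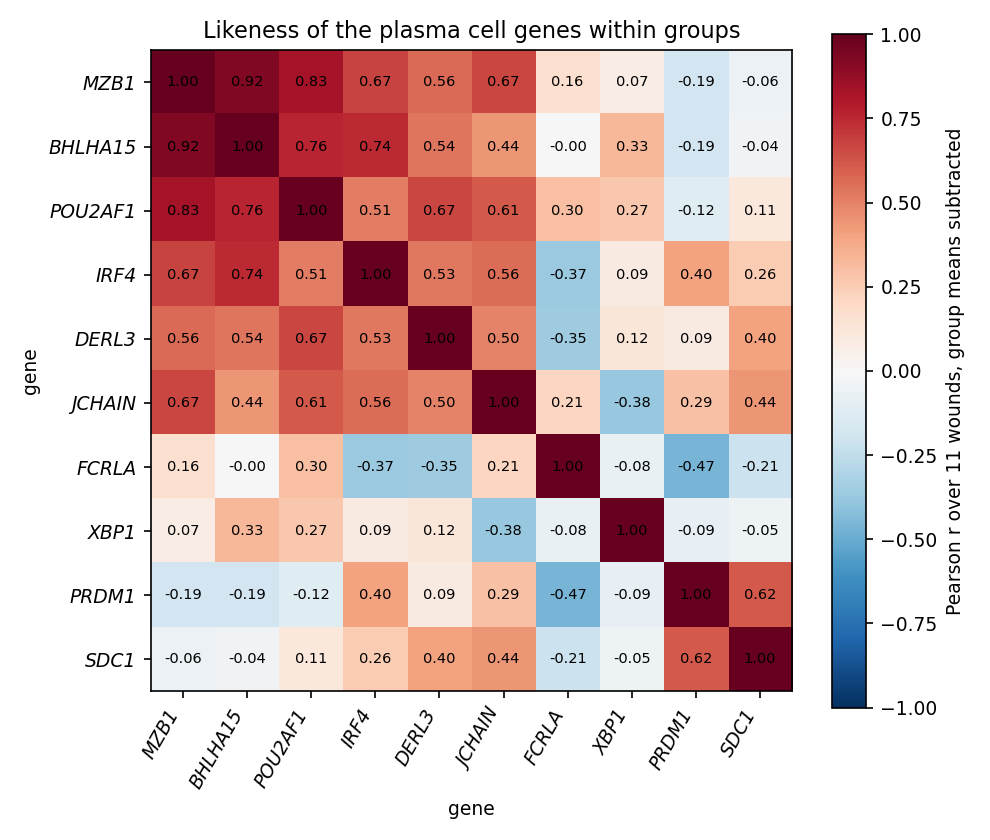
Pearson's r between the 10 genes over 11 wounds after subtraction of the group means of log2(FPKM + 0.5), from blue (-1) to red (1). MZB1, BHLHA15, POU2AF1, IRF4, DERL3 and JCHAIN form a red block with MZB1 against BHLHA15 at 0.923, while FCRLA and XBP1 lie outside it. PRDM1 and SDC1 have their highest r with each other (0.616), and SDC1 is at 0.443 with JCHAIN.

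The nearest other genes were ranked by r among genes with an assigned symbol and without the plasma cell genes themselves. Over all wounds r includes the difference between the pigs. For MZB1 the 5 such genes with the highest r over the 11 wounds were CAMKMT (0.946), NKD2 (0.936), DOC2B (0.930), SLC25A27 (0.924) and CD79A (0.923). CD79A, the signalling chain of the B cell receptor, was the one B lineage gene among these 5. The immunoglobulin constant regions carry no assigned symbol and were not ranked, so these 5 do not show how few B lineage genes lay near MZB1. Over the same wounds their r with MZB1 was 0.945 for lambda, 0.930 for gamma, 0.839 for alpha, 0.837 for epsilon and 0.564 for delta. XBP1 was nearest to TFG (0.951), RHOBTB2, TFPT, ARFIP2 and CDK16 (0.894), of which TFG encodes a protein of ER exit sites. Among the genes nearest to PRDM1 were OSBPL3 (0.952), SOCS1, SBNO2 and PHLDA2 (0.942). SDC1 was nearest to PPP4R1 (0.951), SERPINB2, ANXA2, SLC2A1 and SFN (0.932), and SFN and SERPINB2 are known as genes of keratinocytes.

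The heavy chain made by antibody-secreting cells was read from the immunoglobulin constant region genes. Mu (IgM) and kappa light chain constant regions were not among those read. The 6 gamma (IgG) rows summed to 15.0 to 56.5 FPKM in non-diabetic wounds and 371 to 2480 FPKM, with a median of 1700, in diabetic wounds. The groups did not overlap, and the ratio of means was 37.7 (exact permutation p = 0.00303, adjusted over 5 constant regions 0.00758). The alpha (IgA) row was 7.76 to 65.0 FPKM in non-diabetic and 50.4 to 126 FPKM in diabetic wounds, with overlap and a ratio of means of 2.48 (exact permutation p = 0.0121, adjusted 0.0202). The delta row did not pass the test (exact permutation p = 0.409) and neither did epsilon after adjustment (0.0606), while the lambda light chain rows were 4.77 to 23.2 FPKM in diabetic against 0.464 to 2.70 in non-diabetic wounds (exact permutation p = 0.00303, adjusted 0.00758). Near-identical gamma genes share reads, and their sum was used for that reason. The alpha row is a wide gene model that overlaps others, and how reads were divided there is not given in the sources used here.

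From wound to wound JCHAIN lay closer to the alpha and delta rows than to the gamma rows. IRF4 and BHLHA15 lay closer to the gamma rows than to the alpha row. Pearson's r of JCHAIN was 0.966 with the alpha row and 0.625 with the gamma rows over the 11 wounds, and 0.978 and 0.382 after subtraction of the group means. With the delta row it was 0.872 over the 11 wounds and 0.897 after that subtraction, so JCHAIN did not follow the alpha row alone. For IRF4 the same r with the gamma rows was 0.952 and 0.802, for BHLHA15 0.924 and 0.808, and for MZB1 0.930 and 0.689. With the alpha row, after subtraction of the group means, r was 0.622 for IRF4, 0.423 for BHLHA15 and 0.643 for MZB1, so MZB1 was about as near to both. Within each wound, gamma over alpha was 0.869 to 3.36 in non-diabetic and 4.53 to 31.9 in diabetic wounds, without overlap (exact permutation p = 0.00303, adjusted over 5 ratios 0.0152).

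**Figure D4:**
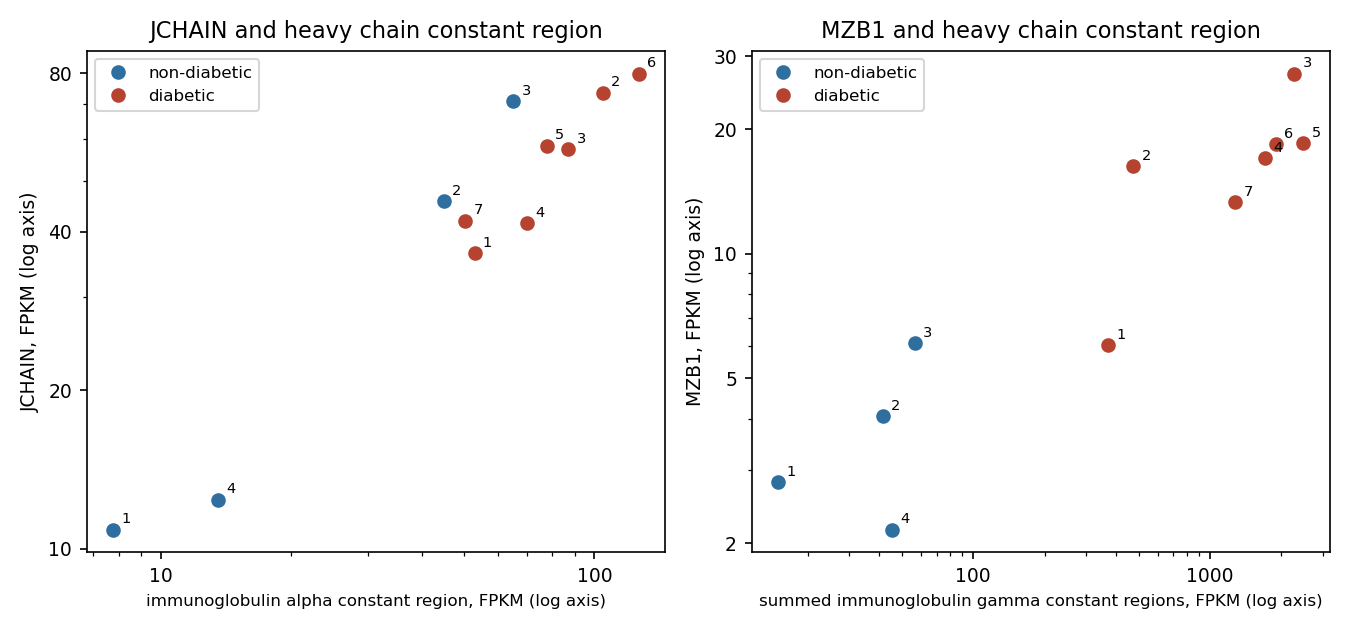
Left, JCHAIN against the immunoglobulin alpha constant region, and right, MZB1 against the summed gamma constant regions, in FPKM on log axes, for 7 diabetic (red) and 4 non-diabetic (blue) wounds numbered by replicate. In the left panel non-diabetic wound 3 lies among the diabetic wounds. Non-diabetic wound 2 lies within their range of JCHAIN but below all of them in alpha (45.0 against 50.4 FPKM or more). In the right panel all 4 non-diabetic wounds lie at or below 56.5 FPKM of gamma and every diabetic wound at or above 371.

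Ratios between genes within a wound were taken after the values had been seen. MZB1 over XBP1 was 0.0155 to 0.0508 in non-diabetic and 0.0439 to 0.172 in diabetic wounds (exact permutation p = 0.00606, adjusted 0.0152). MZB1 over JCHAIN was 0.0860 to 0.259 against 0.166 to 0.476 (exact permutation p = 0.0303, adjusted 0.0505). MZB1 over CD79A was 2.82 to 7.91 in non-diabetic and 2.41 to 5.00 in diabetic wounds (exact permutation p = 0.833), and POU2AF1 over CD79A was 0.406 to 1.53 against 0.698 to 1.55 (exact permutation p = 0.2). The ratio to XBP1 restates the levels of both genes given above. Relative to the B lineage gene CD79A neither MZB1 nor POU2AF1 passed the test. The mean log2 ratio of MZB1 to CD79A differed by -0.08, and that of POU2AF1 to CD79A by 0.54, diabetic minus non-diabetic.

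Genes around the plasma cell programme were counted from lists, each read against the 1.35% of all genes called higher. Of the surface and survival receptors, 0 of 13 tested were called in either direction by limma or by limma's voom on recovered reads, with 1 at an unadjusted p under 0.05, and their median log2 fold change was 0.12. TNFRSF17 (BCMA), the survival receptor of plasma cells, was at 0.455 ± 0.234 FPKM (SD, n = 7) in diabetic and 0.511 ± 0.286 (SD, n = 4) in non-diabetic wounds, on 5 to 36 reads. TNFRSF13C, the BAFF receptor of mature B cells, had the highest change of the list at 0.73 (adjusted p = 0.0864, limma). The most abundant, the chemokine receptor CXCR4, was at 17.1 against 14.6 FPKM. Of the survival and recruitment ligands, 0 of 7 were called by either tool, with 1 at an unadjusted p under 0.05. IL6, the most abundant of them, ran from 3.25 to 67.5 FPKM in diabetic and 7.03 to 49.3 in non-diabetic wounds.

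Lists of other secretory genes held no call by limma or by voom. Of 18 secretory and growth genes of plasma cells 0 were called, with a median log2 fold change of 0.05 and, at an unadjusted p under 0.05, 3 higher and 1 lower. They included the translocon subunit SSR4 at 315 against 305 FPKM and the kinase PIM2 at a log2 fold change of 0.55 (adjusted p = 0.223, limma). Of 28 targets of XBP1 and the unfolded protein response 0 were called, with a median of 0.01, as over all genes, and with 3 higher and 3 lower at an unadjusted p under 0.05. The chaperone CALR was the most abundant at 340 against 369 FPKM. SSR4 and CALR lay far above MZB1 (16.7 against 3.78 FPKM), and bulk values do not show which cells their transcripts came from. These lists therefore cannot show whether such genes changed within plasma cells. DERL2, a relative of DERL3, passed the p threshold (adjusted p = 0.0295, limma) and did not overlap between groups, at 7.71 to 9.66 against 6.17 to 6.40 FPKM, but its log2 fold change of 0.39 was under the size required. The ER ubiquitin ligase SYVN1, its partner in the same pathway, was at 0.57 (adjusted p = 0.118, limma).

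A list drawn up as B cell genes lost at the plasma cell stage gave 2 calls of 13 tested, both higher in diabetic wounds. They were the paired signalling chains of the B cell receptor, CD79A at 4.34 against 0.919 FPKM (log2 fold change 1.74, adjusted p = 0.00103, limma) and CD79B at 1.31 against 0.266 FPKM (log2 fold change 1.19, adjusted p = 0.0256, limma). Every diabetic wound lay above every non-diabetic wound for both. Bulk values do not show whether these transcripts came from B cells or plasma cells, and loss of CD79A at that stage was not tested. CD79B reached 0.5 FPKM in 7 diabetic and 0 non-diabetic wounds, so it passed the filter through the diabetic wounds alone. It lost its call when any 1 of diabetic wounds 3 and 5 or of the 4 non-diabetic wounds was left out (adjusted p from 0.0524 to 0.0872, limma). CD22 was at 0.61 (adjusted p = 0.0900, limma), and ID3, the most abundant and not restricted to B cells, was at 64.2 against 59.3 FPKM. PAX5, MS4A1 and FCER2 were under the filter on low values. At an unadjusted p under 0.05 by limma, 5 of the 13 tested were higher and 1 lower, against 9.01% and 9.39% of all genes tested. Voom on recovered reads called 1 of the 13 higher and 0 lower.

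**Figure D5:**
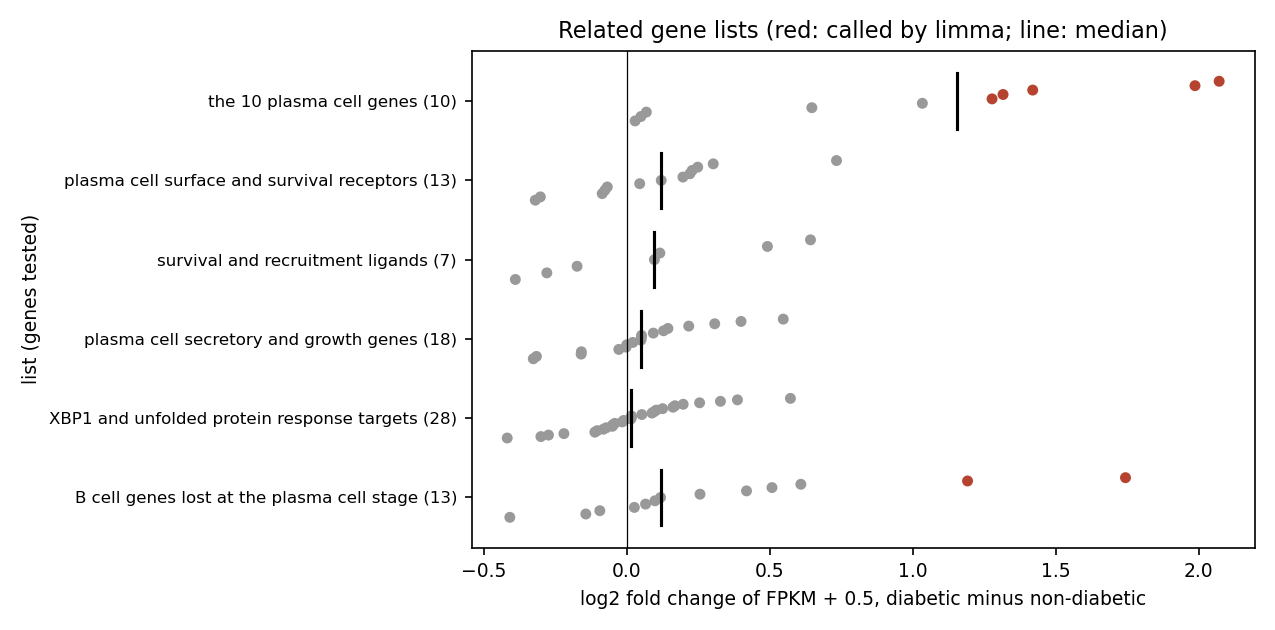
Log2 fold change (diabetic minus non-diabetic, on log2(FPKM + 0.5)) of each tested gene of the 10 plasma cell genes and 5 related lists, red where called by limma, with the median of each list as a black line. The 10 genes have a median of 1.16, while the medians of the 5 lists lie between 0.01 and 0.12 and only CD79A and CD79B are called among them.

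Markers of other cell types were summed in each wound, and 2 of 12 lists differed after adjustment over the 12. The B cell markers, led by CD79A, were 4.90 to 12.3 FPKM in diabetic and 2.29 to 3.21 in non-diabetic wounds, without overlap (exact permutation p = 0.00303, adjusted 0.0182), and 2 of their 3 tested genes were called. The list for plasmacytoid dendritic cells, which also express MZB1, was 16.5 to 23.7 against 11.2 to 14.8 FPKM (exact permutation p = 0.00303, adjusted 0.0182). That list was carried by IL3RA, which other myeloid and endothelial cells also express, and 1 of its 3 tested genes was called. The others did not follow it, with TCF4 at 1.02 to 3.21 FPKM in diabetic and 3.15 to 5.80 in non-diabetic wounds, and SPIB at 0.352 to 0.714 against 0.176 to 0.937. Macrophage markers, led by CD68, were 238 to 387 against 142 to 253 FPKM with overlap (adjusted p = 0.0727 by the exact permutation test), and 2 of their 5 genes were called higher. The melanocyte list, led by PMEL, and the sweat gland list, led by KRT77, had adjusted p of 0.0727 and 0.0945 by the same permutation test. The keratinocyte, T cell (CD3E), sebaceous gland (SOAT1), fibroblast (COL1A1), endothelial (PECAM1), mast cell (MS4A2) and skeletal muscle lists had adjusted p of 0.659 or above. AWAT1, AWAT2, PIP and CPA3 were under 0.1 FPKM in every wound. The part of these other cell types in the levels of the 10 genes was not tested.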

How the data were processed

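Poly(A) RNA libraries prepared to keep strand were made from 7 diabetic and 4 non-diabetic wounds. Per the labels and the study's methods, the authors trimmed reads with fastp, aligned them to Sscrofa11.1 with HISAT2 (version 2.2.1), assembled transcripts with StringTie (version 2.2.3), counted with featureCounts (version 2.0.6) and deposited FPKM. The FPKM formula and the strand setting of the counting are not given in the sources used here. FPKM times gene length gave whole reads within 0.05 for 100% of values below 10000 reads. The divisor of each library so recovered followed a median-of-ratios factor (relative size 0.995 to 1.005) rather than the summed reads. Reads are not independent molecules, and PCR duplicates were not separable.

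Genes with at least 0.5 FPKM in at least 4 libraries (13956) were tested with limma (version 3.58.1, trend) on log2(FPKM + 0.5) and adjusted by Benjamini-Hochberg over all of them. Single values were tested by two-sided exact permutation over the 330 splits of the wounds, the smallest p being 0.00303. The wounds of a group share 1 animal, so p-values measure spread between wounds and not between pigs. Windows of 300 bases came from the Sscrofa11.1 genome, with 30335 of 30376 gene identifiers found in its RefSeq annotation. The text names the 10 genes, in each related list the called genes and the most abundant gene not called, the 5 genes nearest to MZB1, XBP1, PRDM1 and SDC1 by r among genes with an assigned symbol, and the most abundant gene of each marker list. The ranking by r left out the plasma cell genes themselves. TNFRSF17, TNFRSF13C, PIM2, SYVN1, DERL2 and CD22 were added after their values were seen. The genes, lists and alternatives were chosen with earlier results of these data known. SLAMF7, CR2 and CD24 from the related lists and KRT14, SCGB1D2, MUCL1, CLEC4C and LILRA4 from the marker lists were not analysed here. Some items of the lists and sequences are not reported here.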

Additional observations from a re-analysis of the deposited data

Results flagged for a closer look

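Values far from the rest of their group were looked for in 84 groups of wounds, for the 10 plasma cell genes, the other named genes of the related lists, the constant regions and the marker sums, and 6 were found, where chance gives about 1 in 20. None was a value of the 10 genes. The skeletal muscle markers of diabetic wound 3 summed to 1753 FPKM, and those of non-diabetic wound 3 were the lowest of their group at 0.956 FPKM. The T cell markers of diabetic wound 2 summed to 38.2 FPKM, above the other 6 diabetic wounds. Diabetic wound 6 was apart for both the melanocyte markers (7.05 FPKM) and the sweat gland markers (17.3 FPKM), and it was the wound with the highest JCHAIN. CD79A was highest among non-diabetic wounds in wound 2, at 1.31 FPKM, still below every diabetic wound.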

How the results depend on the processing

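Of the 10 genes, 5 were called, and between 4 and 6 when 1 wound was left out. With voom on recovered reads 4 were called. Leaving out diabetic wound 4 and non-diabetic wound 1 together gave 3, with POU2AF1, IRF4 and FCRLA kept. With the replicate number as a block 0 were called, and of all genes 16 (68.8% higher). These numbers name wounds of different pigs, and deviations from the group means of same-numbered wounds correlated at -0.267, 0.215, 0.068 and -0.483, so the numbers do not pair the wounds. All genes called numbered 419 (44.9% higher), 822 with library weights, 187 without both wounds (56.7% higher) and 181 to 483 with 1 wound left out, the lowest without non-diabetic wound 1 (58.6% higher). Genes of the related lists called numbered 2, but 6 with library weights, 1 with voom on recovered reads, 0 with the block, 1 without both wounds and 1 to 4 with 1 wound left out. Genes whose groups did not overlap numbered 3, and 3 to 5 with 1 wound left out, the highest without diabetic wound 1 or non-diabetic wound 3 (added after seeing the data).

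Among the 10 genes the sign turned for XBP1, PRDM1 and SDC1. XBP1 was -0.0259 with quantile normalization. PRDM1 was -0.27 with library weights, -0.18 without diabetic wound 1, -0.10 without diabetic wound 5, -0.44 without non-diabetic wound 1 and -0.30 without both wounds. SDC1 was -0.0791 with quantile normalization, -0.13 with the block, -0.01 and -0.02 without diabetic wounds 1 and 5, -0.0776 without non-diabetic wound 1 and -0.0026 without non-diabetic wound 4. With 1 wound left out, PRDM1 ranged from -0.44 to 0.29 and SDC1 from -0.0776 to 0.22. In the related lists SSR4 turned to -0.11 with quantile normalization, and with 1 wound left out IL6 ranged from -0.69 to 0.22 and TNFRSF17 from -0.18 to 0.0067, the latter over the 7 of 11 omissions in which it passed the filter. The causes were not tested. Voom gave 35.3% of called genes as higher. Counts of 13 to 48 reads limit POU2AF1 in the non-diabetic wounds.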
